A study of Homo sapiens with 9 samples.

Results

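The small nucleolar RNA host genes (SNHGs) and GAS5 are long noncoding RNA genes whose introns carry small nucleolar RNAs (snoRNAs). Their levels were followed in a human breast cancer cell line, MDA-MB-231, with and without the drug YM-155. The 9 genes listed were SNHG1, SNHG3, SNHG5, SNHG7, SNHG8, SNHG12, SNHG15, SNHG16 and GAS5. They were chosen by name with their measured changes on these same arrays already known, so their levels and changes are given as a description and carry no p-value. A gene was taken as measured where a probe set named it and no other gene. By that rule 7 of the 9 were measured, each by 1 probe set, among 22109 genes on 23558 single-symbol probe sets. SNHG3 and SNHG7 were named only on probe sets shared with other genes, and these are described apart. No filter on low values was applied, so all 7 entered every fit.

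The study read total RNA of 9 samples, 3 for each of 3 groups, on Affymetrix arrays that probe whole transcripts. Cells of the 20 h group received 14.6 ng/ml of YM-155 (sepantronium bromide), known as an inhibitor of survivin expression, at the concentration labelled as its LC50. Cells of the 8 h group received YM-155 in steps that added up to 83 ng/ml, and control cells were labelled as untreated, with no time or vehicle given. All groups were the same line in the same medium, dose and time differed together, and the labels do not say that replicates were separate cultures, so the errors below cover only the spread between these samples.

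Each value is an RMA level on the log2 scale, in which a difference of 1 is a doubling, and the array medians lay between 3.11 and 3.20. RNA was brought to 1 concentration before labelling and RMA gives all arrays like distributions, so a change in total RNA per cell would not show. In a bulk sample, fewer cells with a transcript and less of it per cell cannot be told apart. The third control array was the least like its group: its differences from the others over probe sets above the median level had SDs of 0.311 and 0.313, against 0.189 between the other two. All 7 markers expected of this line (VIM, CD44, AXL, CAV1, S100A4, LGALS1 and ANXA1) had a probe set above the median level of 3.88. The array medians above were over all probe sets, whereas this level is the median of the means of single-symbol probe sets. Of the luminal markers, ESR1, PGR and FOXA1 lay below it, while KRT19, EPCAM, CDH1 and GATA3 lay above it. All 5 leukocyte markers measured lay below it in their mean over the 9 arrays, and PTPRC, which defines these cells, had a mean of 1.78. At 20 h alone CD79A and CD14 had means of 4.14 and 3.93, just above it. The summed linear signal of the leukocyte markers was 43.9 to 57.2 at 20 h, 39.2 to 45.6 at 8 h and 34.9 to 41.2 in controls, with CD14 and CD79A called higher at 20 h. Their part in the results below was not tested.

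Host genes of this kind are transcribed by RNA polymerase II and spliced. The introns yield snoRNAs, which guide ribose methylation (box C/D, named SNORD) or pseudouridylation (box H/ACA, named SNORA) of ribosomal RNA. The joined exons hold no long reading frame. Many begin with a terminal oligopyrimidine tract (TOP), the start that ribosomal protein mRNAs also have and that ties their translation to growth signals, and their short reading frames send them to nonsense-mediated decay (NMD). GAS5 was named for its rise in growth-arrested cells, and inhibitors of translation are known to raise it.

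The sequences around the gene starts are shown because several of these genes changed together and because the TOP tract lies there. RefSeq (GRCh38.p14) held a start for 6 of the 7 measured genes, all but SNHG15. Each line runs from 50 bases before the annotated start to 50 bases after it, on the gene's own strand. Capitals mark TATAA, searched on that strand with its first base 45 to 16 bases before the start, and a pyrimidine tract, taken as a C followed by at least 4 C or T with its first base within 5 bases of the start. The lines are SNHG5 (chr6:85678684-85678783, minus strand), SNHG8 (chr4:118278712-118278811, plus strand), SNHG12 (chr1:28581824-28581923, minus strand), SNHG16 (chr17:76557714-76557813, plus strand), GAS5 (chr1:173868996-173869095, minus strand) and SNHG1 (chr11:62855836-62855935, minus strand).
SNHG5: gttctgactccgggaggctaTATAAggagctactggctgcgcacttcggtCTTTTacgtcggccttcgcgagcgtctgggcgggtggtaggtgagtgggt
SNHG8: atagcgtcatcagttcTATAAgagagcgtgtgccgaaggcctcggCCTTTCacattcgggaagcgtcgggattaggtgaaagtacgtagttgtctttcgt
SNHG12: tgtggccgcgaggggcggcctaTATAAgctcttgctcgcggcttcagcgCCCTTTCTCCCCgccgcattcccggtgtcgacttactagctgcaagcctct
SNHG16: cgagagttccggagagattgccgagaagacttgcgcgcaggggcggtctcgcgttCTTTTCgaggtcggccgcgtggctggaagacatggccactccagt
GAS5: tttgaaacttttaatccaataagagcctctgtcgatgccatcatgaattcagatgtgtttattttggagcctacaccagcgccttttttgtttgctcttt
SNHG1: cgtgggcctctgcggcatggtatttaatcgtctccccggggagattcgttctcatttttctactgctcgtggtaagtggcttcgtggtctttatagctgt

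SNHG5, SNHG8 and SNHG12 held both motifs, SNHG16 held the tract alone, and GAS5 and SNHG1 held neither inside these windows. Among all 35116 RefSeq promoters, 4.21% held TATAA in that window, 18.1% held such a tract and 0.766% held both. The motifs were chosen after the sequences had been seen, and a match or its absence says only which letters stand there. Only the start listed for each gene was searched, so a tract at another start of the gene would not show.

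The first comparison was of 20 h at 14.6 ng/ml with no treatment. SNHG15, SNHG5, SNHG12, SNHG8 and SNHG16 were higher at 20 h, on every array, by 0.55 to 1.43 on the log2 scale. SNHG1 was lower at 20 h on every array, by 0.53 on that scale, and the 20 h and control arrays of GAS5 overlapped. A probe set was called at a limma adjusted p under 0.05 over all 23558 single-symbol probe sets. By that count 5 of the 7 genes were higher, where 13.3% of all probe sets were called higher, and 1 was lower, where 16.8% of all were called lower. Every 20 h array lay above every control for 5 of them, as for 19.5% of all probe sets, and below for 1, as for 20.9%. Since the genes were listed with this contrast known, nothing is read from these counts.

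**Figure D1:**
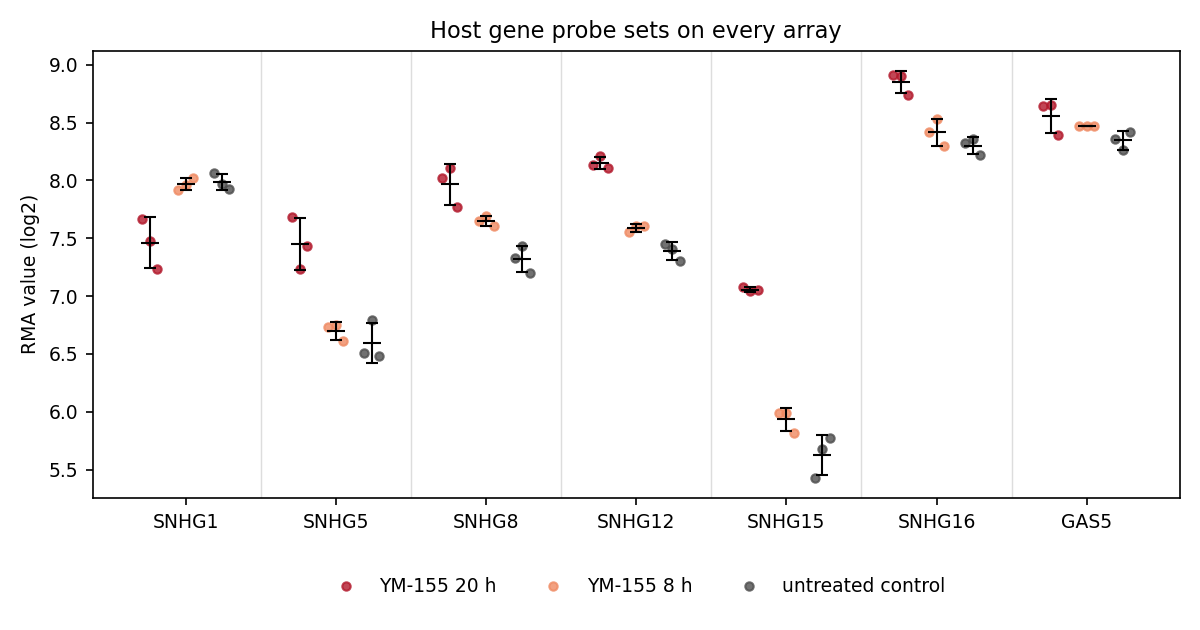
RMA level (log2, vertical axis) of the 7 measured host genes on each of the 9 arrays. Points are arrays, grouped from left to right as YM-155 20 h, YM-155 8 h and untreated control, and black marks are the mean and SD (n = 3); the 20 h points of SNHG15 lie between 7.04 and 7.08, all above the control points, and those of SNHG1 lie below them.

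SNHG15, the host of the box H/ACA RNA SNORA9 and a transcript known for its short half-life, showed the widest gap. Its level was 7.08, 7.04 and 7.05 at 20 h, 5.99, 5.99 and 5.82 at 8 h, and 5.43, 5.68 and 5.77 in controls. The 20 h arrays stood together well above all others, while the 8 h arrays lay only just above the highest control, by 0.04. The mean at 20 h was 7.06 ± 0.023 against 5.63 ± 0.18 in controls (SD, n = 3 each), a log2 difference of 1.43 (SE 0.10), or 2.69-fold. At 8 h the difference from controls was 0.31 (SE 0.10).

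SNHG12 carries both kinds of guide RNA, among them SNORA44, SNORA61 and the box C/D RNA SNORD99. It measured 8.13, 8.21 and 8.11 at 20 h, 7.55, 7.61 and 7.61 at 8 h, and 7.45, 7.41 and 7.30 in controls. The groups did not overlap, and the 8 h arrays fell between the other two groups. The log2 difference from controls was 0.76 (SE 0.08) at 20 h, which is 1.70-fold, and 0.20 (SE 0.08) at 8 h.

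SNHG8, the host of SNORA24, followed the same order. Its levels were 8.02, 8.11 and 7.77 at 20 h, 7.65, 7.69 and 7.61 at 8 h, and 7.33, 7.43 and 7.20 in controls. Every 8 h array lay above every control and every 20 h array above every 8 h array. The difference from controls was 0.65 (SE 0.10) at 20 h and 0.33 (SE 0.10) at 8 h.

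SNHG5 hosts the box C/D pair SNORD50A and SNORD50B. It measured 7.68, 7.23 and 7.43 at 20 h, 6.73, 6.75 and 6.61 at 8 h, and 6.51, 6.79 and 6.48 in controls. The 20 h arrays were high but spread over 0.45, and the 8 h arrays overlapped the controls. The difference from controls was 0.85 (SE 0.13) at 20 h, 1.81-fold, against 0.11 (SE 0.13) at 8 h.

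SNHG16, which hosts the SNORD1 family, showed the least difference among the 5 higher genes. Its levels were 8.91, 8.90 and 8.74 at 20 h, 8.42, 8.53 and 8.30 at 8 h, and 8.32, 8.36 and 8.22 in controls. Again the 20 h arrays stood above all others and the 8 h arrays overlapped the controls. The difference from controls was 0.55 (SE 0.09) at 20 h and 0.12 (SE 0.09) at 8 h.

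GAS5 carries 10 listed box C/D RNAs. Its probe set gave 8.64, 8.65 and 8.39 at 20 h, 8.47 on all 3 arrays at 8 h, and 8.36, 8.26 and 8.42 in controls. The third 20 h array lay among the controls, so the groups overlapped at 20 h, whereas the 8 h arrays all lay just above the controls, by 0.06. The difference from controls was 0.21 (SE 0.09) at 20 h and 0.13 (SE 0.09) at 8 h, neither of them called. Without the third 20 h array the difference was 0.299 and was called. That was 1 of 20 alternatives, and nothing is read from its call, since GAS5 was listed with its changes known.

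SNHG1, host of the box C/D RNAs SNORD22 and SNORD25 to SNORD31, went the other way. It measured 7.67, 7.48 and 7.23 at 20 h, 7.92, 7.96 and 8.02 at 8 h, and 8.06, 7.97 and 7.93 in controls. The 20 h arrays were the lowest of the 9 and the most spread, and the 8 h arrays were mixed with the controls. The mean was 7.46 ± 0.22 at 20 h against 7.99 ± 0.069 in controls (SD, n = 3 each), a log2 difference of -0.53 (SE 0.11). At 8 h the difference was -0.02 (SE 0.11).

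**Figure D2:**
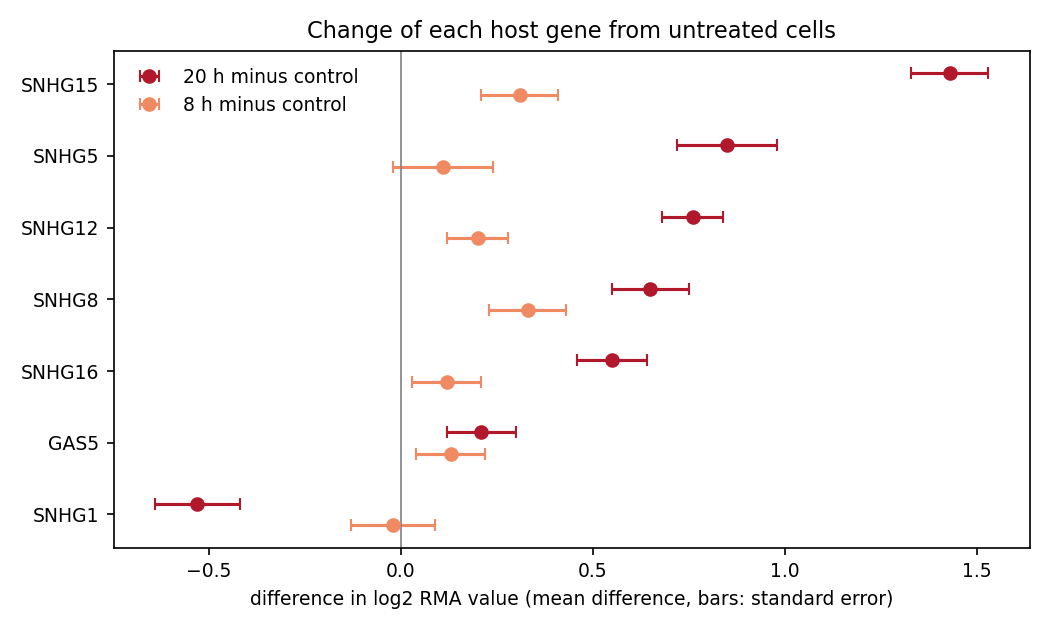
Log2 difference from untreated cells (horizontal axis) for each measured host gene, in order of the 20 h difference. Points are mean differences from 3 arrays a group and bars are standard errors of the fit; SNHG15 reaches 1.43 at 20 h and SNHG1 reaches -0.53.

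The second comparison was of 8 h, with steps adding to 83 ng/ml, with no treatment. Changes were small: 6 of the 7 genes had a higher mean at 8 h and 1 a lower one, with a median difference of 0.13, against a median that rounded to 0 over all probe sets. In limma 0 of the 7 were called higher and 0 lower, where 5.75% and 6.09% of all probe sets were called, and 3 were higher and 0 lower at an unadjusted p under 0.05. Every 8 h array lay above every control for 4 of them (SNHG8, SNHG12, SNHG15 and GAS5), as for 12.8% of all probe sets. Array weights, or a filter that left out probe sets below the median level, called 2 higher, SNHG8 and SNHG15. SNHG15 was also called without control replicate 3, with a difference of 0.380, and SNHG8 without 20 h replicate 3, which left its difference at 0.328. The genes were listed with these changes known, so nothing is read from their calls at 8 h either.

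The 20 h and 8 h cells were also set against each other, although dose and time both differ between them. Relative to 8 h, 5 of the 7 genes were called higher at 20 h and 1 was called lower, where 9.06% and 13.2% of all probe sets were called. The log2 differences of 20 h minus 8 h were 1.12 for SNHG15, 0.75 for SNHG5, 0.56 for SNHG12, 0.43 for SNHG16 and 0.32 for SNHG8 (SE 0.08 to 0.13). GAS5 differed by 0.09 (SE 0.09), and SNHG1 by -0.51 (SE 0.11). The call of SNHG8 was lost in 11 of 20 alternatives, among them every one that left out an 8 h array, control replicate 1 or 2, or 20 h replicate 1 or 2, with differences from 0.248 to 0.340. Nothing is read from the calls of the listed genes in this comparison either, for the same reason. The 3 comparisons share arrays, so their values are set side by side and not correlated.

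Array by array, the median deviation of the 7 genes from the control mean was 0.70, 0.64 and 0.45 at 20 h and 0.14, 0.22 and 0.13 at 8 h. The controls themselves lay at 0.01, 0.05 and -0.08. The highest member was SNHG15 and the lowest SNHG1 on every 20 h array. The 7 genes were spread widely at 20 h, from -0.76 to 1.42 on the third array, and lay between -0.20 and 0.20 on all control arrays.

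Probe sets that name a listed gene together with other genes were outside the rule, and their values are described only. Their SEs and calls came from a fit over all 53617 probe sets. The probe set shared by SNORA9 and its host SNHG15 measured 8.64, 8.80 and 8.54 at 20 h, 7.57, 7.47 and 7.27 at 8 h, and 7.29, 7.68 and 7.46 in controls. Only the 20 h arrays stood apart, by 1.18 (SE 0.13) from controls, beside 1.43 for the probe set of SNHG15 alone. The probe set shared by SNHG7, SNORA17A and SNORA17B measured 6.92, 7.12 and 6.92 at 20 h, 6.22, 6.31 and 6.31 at 8 h, and 5.76, 6.10 and 6.32 in controls, a difference of 0.93 (SE 0.14) at 20 h.

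SNHG3 was named on a pair of shared probe sets that did not move alike. The one shared with RCC1, the neighbouring gene for a chromatin-bound exchange factor, and SNORA73A measured 6.86, 6.78 and 6.95 at 20 h, 6.70, 6.66 and 6.50 at 8 h, and 6.62, 6.68 and 6.69 in controls. It was 0.20 (SE 0.08) higher at 20 h than in controls. The one shared with SNORA73A only measured 5.18, 4.95 and 4.59 at 20 h, 5.30, 5.71 and 5.28 at 8 h, and 5.45, 5.04 and 5.08 in controls, a difference of -0.28 (SE 0.18) at 20 h with overlapping groups. The probe set shared by GAS5 and its antisense gene GAS5-AS1 was dim, with means of 3.48 at 20 h, 3.54 at 8 h and 3.55 in controls.

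The snoRNAs inside these genes were measured by other probe sets than the host genes, and each was tested in the same fit. Their list, like the other lists below, was drawn up with earlier results of these data known. The p-values are therefore not free of that choice. Of 33 listed snoRNAs, 6 had a single-symbol probe set: SNORA24 in SNHG8, SNORD99 in SNHG12, SNORD1A and SNORD1B in SNHG16, and SNORD75 and SNORD78 in GAS5. At 20 h 2 were higher and 1 lower than in controls, with a median difference of 0.08, and at 8 h 1 was higher and 2 were lower, with a median of -0.18. Over all probe sets 13.3% were called higher and 16.8% lower at 20 h, and 5.75% higher and 6.09% lower at 8 h, with medians of 0.03 at 20 h and about 0 at 8 h. With 6 probe sets, nothing is read from the counts of the group, and the snoRNAs are described one by one.

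**Figure D3:**
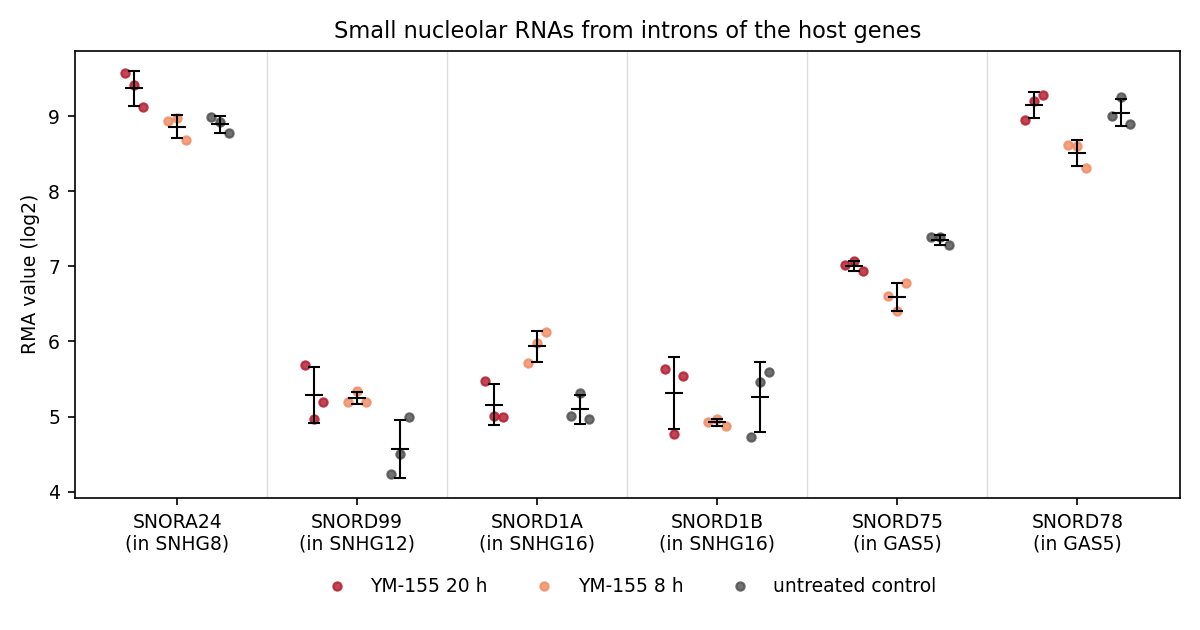
RMA level (log2, vertical axis) on each array of the 6 snoRNAs with a probe set of their own, with the host gene in brackets. Points are arrays, grouped from left to right as YM-155 20 h, YM-155 8 h and untreated control, and black marks are the mean and SD (n = 3); all 8 h points of SNORD75 and SNORD78 lie below their control points.

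Both measured snoRNAs of GAS5 fell at 8 h, when their host's probe set lay slightly above controls. SNORD75, a box C/D RNA, measured 7.02, 7.07 and 6.94 at 20 h, 6.60, 6.40 and 6.78 at 8 h, and 7.39, 7.39 and 7.28 in controls. The 3 groups did not overlap, with 8 h lowest and 20 h between. It fell by 0.76 (SE 0.10, limma adjusted p = 0.00106) at 8 h and by 0.34 (SE 0.10, limma adjusted p = 0.0262) at 20 h. The 20 h call was lost in 5 of 20 alternatives (adjusted p 0.0134 to 0.0837): the replicate block (adjusted p = 0.0532) and the fits without control replicate 1 or 2 or 20 h replicate 1 or 3.

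SNORD78, also box C/D, measured 8.95, 9.20 and 9.28 at 20 h, 8.62, 8.60 and 8.31 at 8 h, and 9.0, 9.25 and 8.89 in controls. Only the 8 h arrays stood apart, below all others. It fell by 0.53 (SE 0.13, limma adjusted p = 0.0253) at 8 h and differed by 0.10 (SE 0.13, limma adjusted p = 0.62) at 20 h. The 8 h call was lost without control replicate 1 (-0.558, adjusted p = 0.0594), control replicate 2 (-0.433, adjusted p = 0.0886) or 8 h replicate 3 (-0.434, adjusted p = 0.093), and the range over 20 alternatives was 0.012 to 0.093. Both were higher at 20 h than at 8 h, SNORD75 by 0.42 (limma adjusted p = 0.0137) and SNORD78 by 0.64 (limma adjusted p = 0.00608).

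SNORA24, a box H/ACA RNA, shared the direction of its host SNHG8 at 20 h. It measured 9.57, 9.42 and 9.12 at 20 h, 8.93, 8.97 and 8.68 at 8 h, and 8.99, 8.92 and 8.77 in controls. The 20 h arrays lay above all others and the 8 h arrays among the controls. It rose by 0.48 (SE 0.13, limma adjusted p = 0.0161) at 20 h, a call lost without control replicate 3 (0.416), 20 h replicate 1 (0.379) or 20 h replicate 2 (0.450), with adjusted p from 0.00385 to 0.062 over 20 alternatives.

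SNORD99, from SNHG12, measured 5.69, 4.97 and 5.20 at 20 h, 5.20, 5.34 and 5.20 at 8 h, and 4.23, 4.50 and 4.99 in controls. The controls were widely spread, and control replicate 3 lay above the lowest 20 h array. It rose by 0.71 (SE 0.21, limma adjusted p = 0.0251) at 20 h, and at 8 h it differed by 0.67 (SE 0.21, limma adjusted p = 0.0663). The 20 h call was lost in 5 of 20 alternatives (adjusted p 0.00555 to 0.0969): without control replicate 1 or 2, without 20 h replicate 1 or 3, and with only the 2 groups compared. The 8 h difference was called in 4, namely the filter on low levels (adjusted p = 0.0335), array weights (0.0111) and the fits without control replicate 3 (0.0176) or 20 h replicate 1 (0.0424).

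The SNORD1 copies in SNHG16 did not move alike, and their sequences are related, so how signal is split between them is uncertain. SNORD1A measured 5.47, 5.01 and 5.00 at 20 h, 5.71, 5.98 and 6.12 at 8 h, and 5.01, 5.32 and 4.97 in controls. Only its 8 h arrays stood apart: it rose by 0.83 (SE 0.16, limma adjusted p = 0.00709, 0.00309 to 0.0341 over 20 alternatives), and at 20 h it differed by 0.06 (SE 0.16). SNORD1B measured 5.64, 4.77 and 5.54 at 20 h, 4.93, 4.97 and 4.88 at 8 h, and 4.73, 5.46 and 5.59 in controls. Its groups overlapped in both comparisons with control.

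Other noncoding host genes of the same kind were listed for comparison. Of 20 listed, 9 were measured, on 17 probe sets, 9 of them for SNHG32, a gene with near-identical copies on the array. At 20 h 6 probe sets were higher and 0 lower (0 lower also at an unadjusted p under 0.05), with a median difference of 0.14, and at 8 h 2 were higher and 0 lower (7 and 0 at an unadjusted p under 0.05), with a median of 0.15. These counts and medians take SNHG32 several times. By gene, on the brightest probe set of each, 5 of 9 were higher and 0 lower at 20 h, with a median of 0.3. At 8 h 2 of 9 were higher and 0 lower, with a median of 0.15. Among the 6 was a SNHG32 probe set that rose by 0.58 from a control mean of 5.82. The other SNHG32 probe sets were brighter, differed by -0.15 to 0.14 at 20 h and were not called. Over all probe sets 13.3% were called higher and 16.8% lower at 20 h, and 5.75% and 6.09% at 8 h, so the 2 higher at 8 h, 11.8% of the 17, are not read as a result about the group. SNHG19 rose by 1.36 (SE 0.10, limma adjusted p = 4.25e-06) at 20 h and by 0.40 (SE 0.10, limma adjusted p = 0.0244) at 8 h. SNHG17 rose by 1.36 (SE 0.22, limma adjusted p = 0.000863) at 20 h. ZFAS1, which hosts the SNORD12 family, rose by 0.63 at 20 h (limma adjusted p = 0.000386), and EPB41L4A-AS1 rose by 0.68 at 20 h and 0.46 at 8 h (limma adjusted p = 0.00116 and 0.0285). Long noncoding RNAs as RefSeq classes them, without the members, had 8.32% of 1995 probe sets higher and 7.02% lower at 20 h, with a median of 0.05.

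Protein-coding genes that carry snoRNAs had calls in both directions. Of 22 probe sets for 21 measured genes of 51 listed, 6 were higher and 3 lower at 20 h and 4 were higher and 2 lower at 8 h, with medians of 0.11 and 0.09. These are 27.3% and 13.6% of the list at 20 h, where 13.3% and 16.8% of all probe sets were called, and 18.2% and 9.09% at 8 h, where 5.75% and 6.09% were. TPT1, which encodes the growth-related protein TCTP, rose by 0.92 (SE 0.09, limma adjusted p = 2.47e-05) at 20 h and 0.89 at 8 h. At 20 h RPL32, a ribosomal protein gene, rose by 0.81 (limma adjusted p = 0.000595) and WDR43, a ribosome assembly factor gene, by 0.70 (limma adjusted p = 0.000468). SF3B3, a splicing factor gene, fell by 0.68 (limma adjusted p = 3.81e-05). HSPA9, the mitochondrial HSP70 gene, rose by 1.08 at 8 h (limma adjusted p = 0.000864) on 1 probe set, while its other probe set differed by -0.02.

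Genes of the TOP class, the start that many of these hosts share, gave 3 higher and 0 lower of 12 probe sets at 20 h (4 and 1 at an unadjusted p under 0.05) and 4 higher and 0 lower at 8 h (5 and 0 at an unadjusted p under 0.05). Over all probe sets 13.3% were called higher and 16.8% lower at 20 h, and 5.75% and 6.09% at 8 h. TPT1, EEF2 and IPO7 are in both this list and that of the coding hosts, on the same probe sets. NPM1, a nucleolar chaperone gene, rose by 0.79 at 20 h and 0.63 at 8 h (limma adjusted p = 0.000279 and 0.00413). EEF2, translation elongation factor 2, rose by 0.47 at 20 h (limma adjusted p = 0.00437). NAP1L1, a histone chaperone gene, rose by 0.80 at 8 h (limma adjusted p = 0.00155) and differed by 0.03 at 20 h. Of 7 regulators of TOP mRNAs, 1 was higher and 3 were lower at 20 h, beside the same 13.3% and 16.8% of all probe sets. TIA1, an RNA-binding repressor, fell by 1.67 (SE 0.19, limma adjusted p = 9.17e-05) and MTOR, the growth kinase, by 0.78 (SE 0.09, limma adjusted p = 0.000119). The mean of TIA1 was 3.79 at 20 h, just below the median level of 3.88, and 5.46 in controls. CNBP rose by 0.41, TIAL1 fell by 0.39, and LARP1, which binds TOP starts, differed by 0.09.

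The factors of NMD, which degrades the spliced hosts, had calls in both directions. Of 16 measured of 20 listed, 3 were higher and 4 lower at 20 h, and 1 was higher and 1 lower at 8 h. Over all probe sets 13.3% were called higher and 16.8% lower at 20 h, and 5.75% and 6.09% at 8 h, against 6.25% of this list in each direction at 8 h. Nothing is read from the counts of the group. UPF1, the central helicase of the pathway, rose by 0.53 at 20 h, and UPF2 differed by -0.14 and was not called. EIF4A3, of the exon junction complex, rose by 0.65 (SE 0.07, limma adjusted p = 5.32e-05), and DHX34, a helicase that acts with UPF1, rose by 0.93 (SE 0.12, limma adjusted p = 0.000205). MAGOHB, a paralogue of MAGOH in the exon junction complex, fell by 1.13 (SE 0.20, limma adjusted p = 0.00146), and SMG8, of the kinase complex that phosphorylates UPF1, fell by 0.56 (limma adjusted p = 0.00283). Both were dim, with means at 20 h of 3.41 for MAGOHB and 3.50 for SMG8, below the median level of 3.88.

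The proteins that package snoRNAs were called at about the background share at 20 h. Of 16 measured of 18 listed, 2 were higher and 3 lower at 20 h, with a median of 0.01, where 13.3% and 16.8% of all probe sets were called. Nothing is read from the counts of this group either. SNU13, which binds the box C/D fold, rose by 0.63 (SE 0.08, limma adjusted p = 0.000131) and NOP10, of the box H/ACA particle, by 0.62 (SE 0.10, limma adjusted p = 0.000822). RUVBL1, an assembly ATPase, fell by 0.68 (SE 0.09, limma adjusted p = 0.000193). The box C/D core genes FBL and NOP58 differed by 0.02 and 0.01 and were not called. At 8 h 1 was higher and 2 were lower, where 5.75% and 6.09% of all probe sets were called. NAF1, an assembly factor of the box H/ACA particle, rose by 0.60 at 8 h (SE 0.07, limma adjusted p = 0.000522). NOPCHAP1 fell by 0.65 at 8 h (SE 0.12, limma adjusted p = 0.00554) and RUVBL1 by 0.33 (SE 0.09, limma adjusted p = 0.0344).

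**Figure D4:**
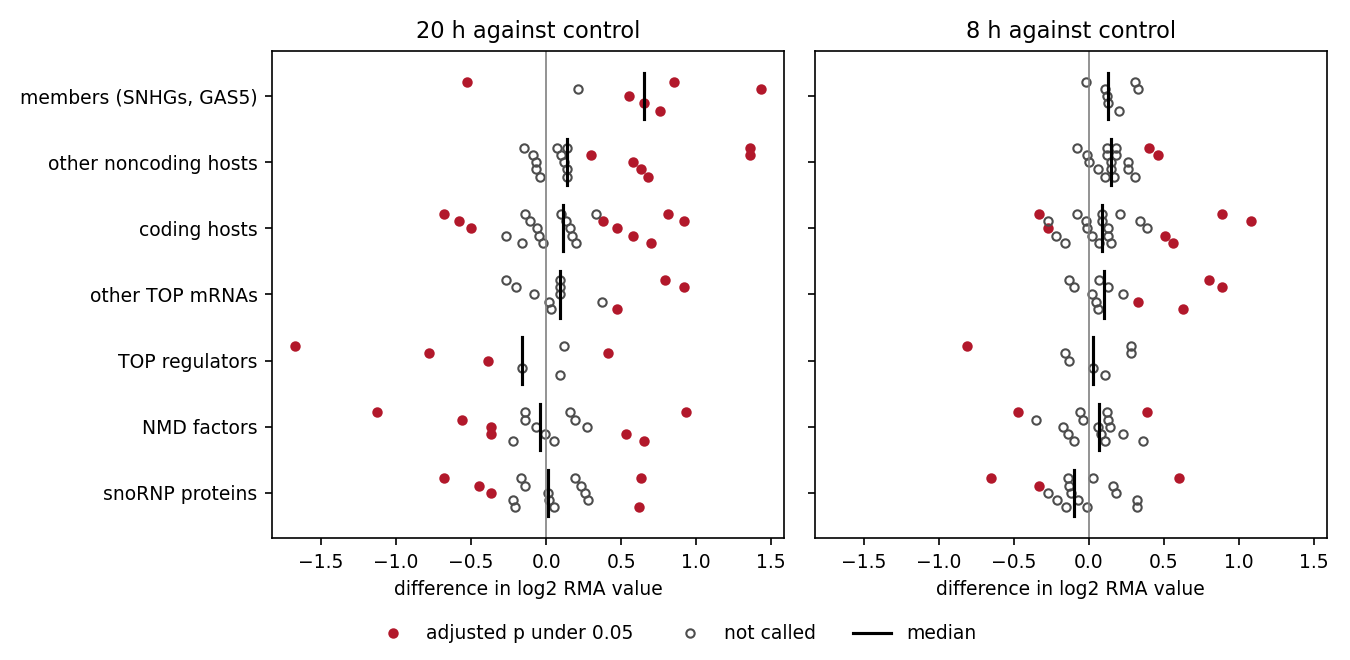
Log2 difference from control (horizontal axis) of every single-symbol probe set of 7 gene lists, at 20 h (left) and 8 h (right). Filled points have a limma adjusted p under 0.05 over all probe sets, open points do not, and black bars are list medians; the median of the host genes and GAS5 is 0.65 at 20 h and 0.13 at 8 h.

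The genes whose 9 array values lay closest to the median profile of the 7 hosts were CSRNP2, TIGD6, DAZAP2, C14orf119 and RPS6. Likeness was the root mean square difference of deviations from the control mean over the 9 arrays, among genes above the median level, and ran from 0.062 for CSRNP2 to 0.086 for RPS6. RPS6, a ribosomal protein gene, lay 0.54 above controls at 20 h and 0.14 at 8 h. Closest to GAS5 alone were TOMM5, C17orf100, KLF6, ATXN7L2 and DCTN4, with values of 0.058 to 0.068.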

How the data were processed

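The deposited values are 1 log2 level per probe set and array, which the authors made by RMA in Affymetrix Expression Console, per the labels. Versions and genome build are not given in the sources used here. Of 53617 probe sets, 25713 were in the platform's gene table, 23558 of them with 1 symbol, 2155 with several or a repeated one. The other 27904 have no name here. Symbols were updated through gene identifiers, which changed 3. Levels of different probe sets were not compared.

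A model with a mean per group was fitted over the 9 arrays by lmFit and eBayes in limma 3.58.1 (R 4.3.3), with 6 residual and 3.97 prior degrees of freedom, for all single-symbol probe sets, and two-sided p-values were adjusted by Benjamini and Hochberg over all of them. Calls needed an adjusted p under 0.05. Probe sets naming several genes were instead fitted and adjusted together with all 53617 probe sets. With 3 arrays against 3, the smallest p an exact permutation test allows is 0.1, so none was used. The fit was tested on simulated data.

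Members and gene lists were chosen with earlier results of these data known. All members were named, as were hosted snoRNAs called against control or lying in GAS5, and of each other list up to 4 called probe sets by size of change per comparison with control. SNORD1B, UPF1, UPF2, LARP1, FBL and NOP58 were added after their values were seen. Alternatives covered the probe sets tested, normalization, variance model, replicate block, only the 2 groups compared and each array left out. In another, 8 h replicates 1 and 2 were counted as 1. Their difference had an SD of 0.148, against 0.217 and 0.221 for the other pairs at 8 h. Whether they were separate cultures was not tested. Arrays have no read depth, so precision is limited by the number of arrays. Neither the files nor the labels give scan dates. Further tools were matplotlib 3.10.9 for plots and pandas 2.3.3 with numpy 2.4.6 under Python 3.11.15 for tables.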

Additional observations from a re-analysis of the deposited data

Results flagged for a closer look

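The effect of 20 h of YM-155 differed from that of 8 h, by limma's test of 20 h against 8 h, for 4 of the 6 snoRNAs with their own probe set, 3 higher and 1 lower at 20 h. Over all probe sets 9.06% were called higher and 13.2% lower in that comparison. The snoRNA list was drawn up with earlier results of these data known, and with 6 probe sets nothing is read from the count. SNORD1A in SNHG16 differed by -0.78 (limma adjusted p = 0.00561) and SNORD78 in GAS5 by 0.64 (limma adjusted p = 0.00608). SNORA24 in SNHG8 differed by 0.51 (limma adjusted p = 0.0162) and SNORD75 in GAS5 by 0.42 (limma adjusted p = 0.0137). The call of SNORA24 was lost without 8 h replicate 3 (0.420), 20 h replicate 1 (0.412) or 20 h replicate 2 (0.483). For SNORD75 the limma adjusted p reached 0.0497 among 20 alternatives. Dose and time differ together between these groups.

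Signal outside the single-symbol probe sets lay above every control on all 20 h arrays for 3 of the 5 shared probe sets, as for 19.5% of all single-symbol probe sets, and the groups of the other two overlapped. The one naming SNORA9 and SNHG15 was 1.18 higher at 20 h, and the one naming SNHG7, SNORA17B and SNORA17A was 0.93 higher. The one naming RCC1, SNHG3 and SNORA73A was 0.20 higher and was not called in the fit over all 53617 probe sets. Which of the genes named gave the signal was not tested. With 3 arrays a group, no array was tested for standing apart in single genes.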

How the results depend on the processing

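At 20 h against control, 5 of the 7 host genes stayed higher and SNHG1 lower in all 20 alternatives, and GAS5 was called higher only without 20 h replicate 3. These alternatives reuse the arrays whose changes were known when the genes were listed, so nothing is read from that stability. At 8 h, host genes called higher went from 0 to 2 with a filter above the median level, from 0 to 2 with array weights, and from 0 to between 0 and 1 when 1 array was left out. For the 6 hosted snoRNAs with an array left out, 1 to 2 were higher and 1 to 2 lower at 8 h, and 0 to 2 were higher and 0 to 1 lower at 20 h. At 8 h 2 were higher with the filter and with array weights, and at 20 h 1 was higher with only the 2 groups compared. With the replicate block 0 were lower at 20 h. Replicate numbers did not pair the samples: deviations of same-numbered arrays correlated between -0.181 and 0.0612.

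Counts of the other lists moved by over 1.5 times in few cases. With all 53617 probe sets tested, snoRNP proteins lower at 8 h numbered 1, coding hosts higher at 20 h against 8 h 0, and TOP mRNAs in that comparison 0 higher and 1 lower. With the brightest probe set per gene, other noncoding hosts lower at 20 h against 8 h numbered 0. With repeated quantile normalization, 4 coding hosts were lower at 8 h and 1 TOP mRNA was lower at 20 h, and at 20 h against 8 h 2 noncoding hosts were lower and 1 coding host was higher.

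Small differences turned sign when an array was left out, none of them called: SNHG1 at 8 h (-0.051 to 0.017), SNORA24 at 8 h (-0.094 to 0.056), SNORD1A at 20 h (-0.099 to 0.166), SNORD1B at 20 h (-0.208 to 0.330) and SNORD99 at 20 h against 8 h (-0.162 to 0.200). The cause was not tested.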
